A study of Mus musculus with 10 samples.

Results

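The genes described here are Pappa2 and 9 other genes of the insulin-like growth factor axis, in 10 mouse ovary libraries. They were chosen by gene symbol: Pappa2, Pappa, Igf1, Igf2, Igf1r, Igfbp2, Igfbp3, Igfbp4, Igfbp5 and Stc2. Each matched 1 row of the count table, so they are 10 of its 24306 genes, and all 10 passed the low-count filter that left 20570 genes. Pappa2 was put forward because of its difference between Rar mutant and control ovaries, and the others for their place in the pathway. The values of all 10 in that comparison are therefore given as a description.

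Insulin-like growth factors are secreted ligands that act through a receptor tyrosine kinase at the cell surface. Most of the ligand outside cells is held by binding proteins, and secreted proteases release it by cutting them. In the ovary the axis acts with follicle-stimulating hormone on granulosa cells, the somatic cells that surround the oocyte in a follicle.

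PolyA RNA was sequenced from whole gonads of mice aged 6 weeks, on a background mixed from C57BL/6 and 129. Every group carried the same floxed receptor alleles for retinoic acid: Rara f/f, Rarb f/f and also Rarg f/f. The 5 controls were Sf1-Cre- and Dmrt1 +/+, the 3 Rar mutants were Sf1-Cre+ and Dmrt1 +/+, and the 2 Dmrt1 het Rar mutants were Sf1-Cre+ and Dmrt1 fl/+. Sf1-Cre takes its name and promoter from the gene now called Nr5a1, whose activity marks gonadal somatic cells and the adrenal cortex, and the receptors are not deleted in ovarian cells without it. The study's title asks about retinoic acid signalling in the soma of the ovary, and its design text counts 5 ovaries in each of 2 genotypes, which joins both Sf1-Cre+ groups. The labels do not say whether each library came from a separate animal, so p-values measure only the spread between these libraries. In whole ovaries, fewer cells of a type and less RNA per cell cannot be told apart.

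Libraries held 21064856 to 25920131 counts. Markers of granulosa, theca, luteal, oocyte, stromal and surface epithelial cells were all detected in every group. The numbers in the sample titles fall into 2 sets: 4 libraries (control 1, both Dmrt1 het Rar mutants, Rar mutant 1) are under 7800, and the 6 others are above. What these numbers stand for is not given in the sources used here. The sets differ in many genes, so values are also given within them. Log2 fold changes in Rar mutants against controls were 0.05 for Rara, -0.26 for Rarb and -0.78 for Rarg (SE 0.21, 0.25 and 0.15, edgeR adjusted p = 0.969, 0.835 and 0.104), and Dmrt1 did not pass the low-count filter. Reads outside the deleted exons count toward these genes, so the values do not check the deletion fully.

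Pappa2 (ENSMUSG00000073530) lies on GRCm38 chromosome 1, from 158711727 to 158980490 on the minus strand, and its exons overlap those of the long noncoding RNA 1600012P17Rik on the same strand. Whether reads of the overlap were assigned to Pappa2 is not given in the sources used here. The RefSeq promoter table (GRCm38.p6) holds 9 of the 10 genes, all but Pappa. The Pappa2 window is printed because Pappa2 is the gene on which the results turn, and the Igf1r window because it holds a match and Igf1r was highest in Dmrt1 het Rar mutants. Each window is 300 bases long and lies mostly before a RefSeq start site. The coordinates are chr1:158958126-158958425 on the minus strand, inside the annotated span of Pappa2, and chr7:67952007-67952306 on the plus strand, before the annotated span of Igf1r (ENSMUSG00000005533, chromosome 7, 67952827 to 68233668). Capitals mark AGGTCA or its reverse complement TGACCT, the half-site bound by retinoic acid receptors and many other nuclear receptors.
Pappa2: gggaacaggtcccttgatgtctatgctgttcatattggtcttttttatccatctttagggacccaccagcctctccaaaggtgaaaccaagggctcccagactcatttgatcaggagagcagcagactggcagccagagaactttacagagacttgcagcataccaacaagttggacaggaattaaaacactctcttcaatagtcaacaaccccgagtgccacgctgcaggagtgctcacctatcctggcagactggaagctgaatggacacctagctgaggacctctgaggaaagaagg
Igf1r: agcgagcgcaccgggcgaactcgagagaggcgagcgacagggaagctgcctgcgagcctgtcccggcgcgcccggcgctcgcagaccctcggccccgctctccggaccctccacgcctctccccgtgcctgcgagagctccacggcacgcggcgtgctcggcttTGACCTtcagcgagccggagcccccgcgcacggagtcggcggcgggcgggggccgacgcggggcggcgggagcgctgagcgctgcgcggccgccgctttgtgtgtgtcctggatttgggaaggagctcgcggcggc
The searches were for AGGTCA and for TATAAA, the core of a TATA box, each on both strands and with no overlap between them. The Pappa2 window holds neither. The half-site occurs in the windows of Igf1r (1 match, at -86), Igf1 (1 match, at -161) and Igf2 (1 match, at -234, in 1 of its 4 windows), and TATAAA occurs in that of Igfbp4 (1 match, at -28). Among all 32851 promoter windows of that length, 16.3% hold the half-site and 13.6% hold TATAAA.

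Binding protein genes were the most highly expressed of the 10 in control ovaries. By the deposited FPKM, which is per length, Igfbp5 was highest with 124 ± 14.7 FPKM (SD, n = 5), followed by Igfbp2 with 47.2 ± 17.3 and Igfbp4 with 33.3 ± 7.18 FPKM. The ligand gene Igf1 (9.83 ± 0.324 FPKM) and the receptor gene Igf1r (8.74 ± 1.99 FPKM) came next, ahead of Igfbp3 (4.32 ± 1.79), Stc2 (2.17 ± 0.265) and the second ligand gene Igf2 (1.55 ± 0.266 FPKM). The protease genes were lowest, Pappa with 1.103 ± 1.63 FPKM and Pappa2 with 0.0454 ± 0.0399 FPKM. Neighbours in this order whose control libraries did not overlap were Igfbp5 and Igfbp2, Igfbp4 and Igf1, Igf1r and Igfbp3, and Pappa and Pappa2. The control ranges of the other neighbours overlapped. Among these, Stc2 was above Igf2 in 5 of 5 controls, and Igfbp2 above Igfbp4, Igf1 above Igf1r, Igfbp3 above Stc2 and Igf2 above Pappa in 4 of 5 each.

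The order shifted by 1 place in each mutant group. In Rar mutants Igfbp4 (52.2 ± 18.6 FPKM, n = 3) stood above Igfbp2 (50.4 ± 15.6 FPKM), with overlapping libraries. In the Dmrt1 het Rar mutants Igf1r (15.0 ± 2.95 FPKM, n = 2) stood above Igf1 (10.1 ± 0.318 FPKM), without overlap. Pappa2 stayed last in each group, but its Rar mutant libraries (0.322, 2.19 and 0.986 FPKM) reached those of Pappa (2.35, 0.398 and 3.10 FPKM).

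**Figure D1:**
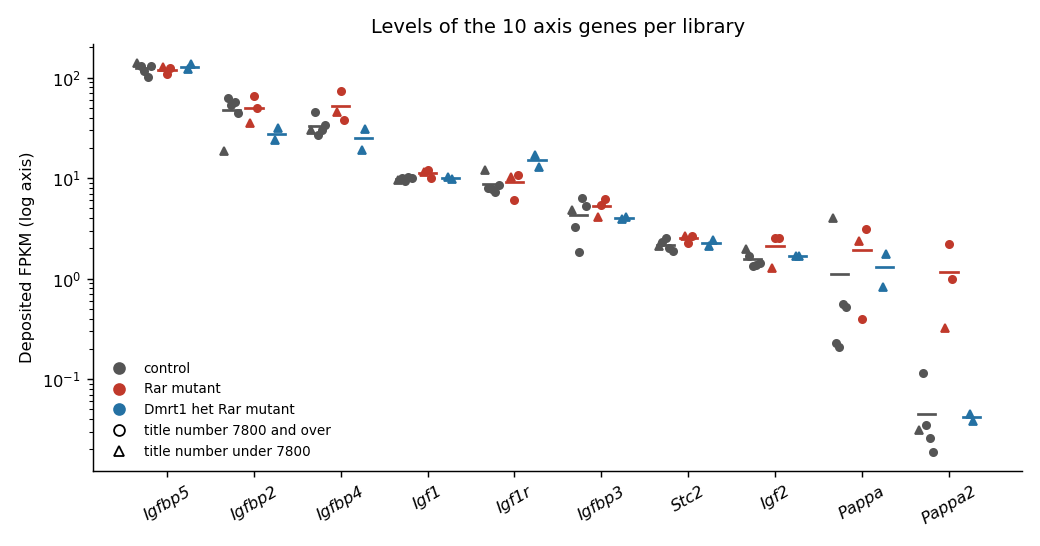
Deposited FPKM of the 10 genes on a log axis, 1 point per library and 1 bar per group mean; genes are ordered by the control mean, and triangles are libraries of title number under 7800. Pappa2 spans the widest range, from 0.019 FPKM in control 5 to 2.19 FPKM in Rar mutant 2, while Igf1 lies between 9.47 and 12.1 FPKM in all libraries.

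The genes also differed in how much they varied between controls. Igf1 had a coefficient of variation of 3.41% over the 5 controls, and 0.394% of the 20570 genes had a smaller one. Igfbp5 (11.7%), Stc2 (11.9%) and Igf2 (17.1%) came next, with 17.4%, 18.1% and 34.7% of genes below them. Igfbp2 (36.4%), Igfbp3 (41.7%), Pappa2 (86.2%) and Pappa (148%) varied most. For Pappa, 99.6% of genes had a smaller coefficient. These shares are not matched for expression level, and Pappa2 had only 5 to 30 counts in controls.

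Pappa2 encodes pappalysin 2, a secreted metalloprotease that cuts Igfbp3 and Igfbp5 and is best known from placenta and bone. Its counts were 8, 30, 8, 7 and 5 in controls 1 to 5, 84, 550 and 234 in Rar mutants 1 to 3, and 11 and 9 in the Dmrt1 het Rar mutants. All 3 Rar mutants lay above every control, and both Dmrt1 het Rar mutants lay within the controls although they too were Sf1-Cre+. The 9 other genes had at least 51 counts in every library, so Pappa2 is the only 1 of the 10 measured on few counts.

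Scaled to library size as CPM, Pappa2 was at 12.1 ± 9.92 in Rar mutants and 0.473 ± 0.407 in controls. This gave a log2 fold change of 4.65 (SE 0.65) for Rar mutants against controls. Among the 6 libraries above 7800 alone (2 Rar mutants, 4 controls) it was 4.99 (SE 0.64), and between the single Rar mutant and the single control of the lower set the log2 CPM differed by 3.05. The authors' deposited table of 185 genes, which compares the same 5 controls and 3 Rar mutants, lists Pappa2 with a mean count of 116.8, a log2 fold change of 2.28 and an SE of 0.31. Pappa2 has the third smallest p in that table, and no other gene of the 10 is listed in it. The submitters' notes name DESeq2, while 4.65 is from edgeR, so the sizes of both fold changes are not directly comparable.

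The Dmrt1 het Rar mutants put Pappa2 at 0.429 ± 0.048 CPM. Against controls this was a log2 difference of -0.14 (SE 0.86, edgeR adjusted p = 0.942). Against Rar mutants, whose high libraries put Pappa2 forward, it was -4.80 (SE 0.96), which is a description with no test. Both Dmrt1 het libraries are of lower title number. Within that set their log2 CPM minus that of Rar mutant 1 was -2.64 and -2.83, and minus that of control 1 was 0.41 and 0.22.

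Summed levels of some marker lists of other cells were highest in Rar mutants 2 and 3, as Pappa2 was. The summed level of 4 adrenal cortex markers, all 4 in the table, was 0.655 to 1.23 CPM in controls, 1.01 to 1.14 CPM in Dmrt1 het Rar mutants and 3.19, 298 and 274 CPM in Rar mutants 1 to 3. Within that list Akr1b7 had 5973 and 6081 counts in Rar mutants 2 and 3 and 10 in Rar mutant 1, and Cyp11b1, the last enzyme of corticosterone synthesis, had 61, 1204 and 292 counts in the 3 Rar mutants and 0 to 15 in controls. Of the other 2 genes of the list, Cyp21a1 had 0 to 5 counts in every library, and Mc2r had 1 to 14, with the highest in the Dmrt1 het Rar mutants. Pappa2 was at 84 counts in Rar mutant 1, where Akr1b7 was at its control level.

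A list of 6 periovulatory granulosa markers summed to 4.22 to 7.87 CPM in controls, 5.70 to 9 CPM in Dmrt1 het Rar mutants and 8.07, 28 and 2390 CPM in Rar mutants 1 to 3. Pappa2 was highest in Rar mutant 2, and this list in Rar mutant 3. Globin genes summed to 464, 1990 and 2690 CPM in the 3 Rar mutants and 295 to 1630 CPM in controls. None of the 4 decidua and placenta genes searched for is in the count table. What these cell types contribute to the Pappa2 counts was not tested.

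**Figure D2:**
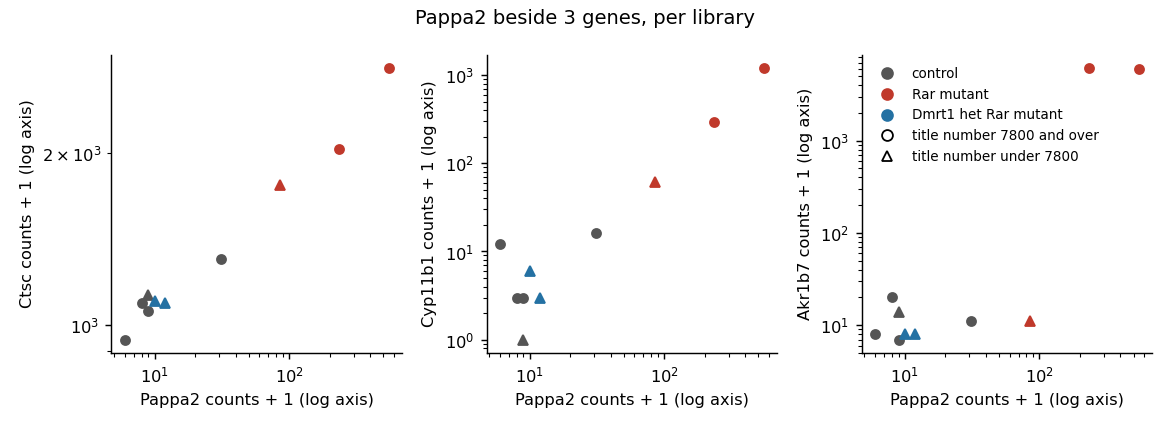
Counts of Ctsc, Cyp11b1 and Akr1b7 against counts of Pappa2 in each library, all plus 1 on log axes; colours give the group and triangles title numbers under 7800. Rar mutant 1, with 84 Pappa2 counts, lies between the controls and the other Rar mutants for Ctsc and Cyp11b1, and among the controls for Akr1b7 (10 counts).

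Among 13861 named genes with a mean of at least 1 CPM, the 8 whose log2 CPM was most like that of Pappa2 over the 10 libraries were Ctsc, Nars, Cyp11b1, Map3k14, Tmem38b, Bmper, AW551984 and H6pd. Their Pearson coefficients ran from 0.986 for Ctsc, which encodes the lysosomal protease cathepsin C, to 0.932 for H6pd, which supplies NADPH to a steroid reductase in the endoplasmic reticulum. The coefficients are a description: all 10 points share their libraries, and the 3 Rar mutants set most of them. Ctsc was at 37.9 to 51.8 CPM in controls, at 46.0 and 48.3 CPM in Dmrt1 het Rar mutants, and at 69.1, 117 and 87.3 CPM in Rar mutants 1 to 3. Like Pappa2 it was highest in Rar mutant 2, and its Rar mutants lay above all other libraries. By Spearman's coefficient 1 of the 8 stayed among the 8 most alike (AW551984), and over the 6 libraries above 7800 alone 0 did.

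Pappa encodes pappalysin 1, a secreted protease that cuts Igfbp4 and is made by granulosa cells of follicles that will ovulate. It was at 44.6, 2.54, 2.34, 6.18 and 5.75 CPM in controls 1 to 5, 25.9, 4.44 and 33.8 CPM in Rar mutants, and 9.21 and 19.6 CPM in Dmrt1 het Rar mutants. Control 1 had the highest value of all 10 libraries, and the groups overlapped. The log2 fold change was 0.80 (SE 0.94) in Rar mutants against controls, 2.34 without control 1 and 0.30 without Rar mutant 3. It was 2.18 (SE 0.75) in the higher title numbers, and in the lower set the log2 CPM of Rar mutant 1 minus that of control 1 was -0.78. Against controls, the Dmrt1 het Rar mutants gave 0.23 (SE 1.08, edgeR adjusted p = 0.925), and 1.78 without control 1 (edgeR adjusted p = 0.123).

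Pappa and Pappa2 did not move together. Pappa2 made up 12.1%, 84.6% and 24.1% of the summed FPKM of both pappalysins in Rar mutants 1 to 3, 0.769% to 33.4% in controls, and 5.15% and 2.11% in Dmrt1 het Rar mutants. Rar mutant 2, with the most Pappa2, had the least Pappa of its group.

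Stc2 encodes stanniocalcin 2, a secreted inhibitor that binds both pappalysins. It was at 11.1, 11.8, 13.3, 10.5 and 9.81 CPM in controls, 13.9, 11.8 and 13.5 CPM in Rar mutants, and 10.9 and 12.8 CPM in Dmrt1 het Rar mutants. The groups overlapped, with log2 fold changes of 0.20 (SE 0.15) in Rar mutants and 0.07 (SE 0.18, edgeR adjusted p = 0.861) in Dmrt1 het Rar mutants against controls. Its paralogue Stc1, also an inhibitor, was far more variable, from 3.87 to 32.8 FPKM in controls.

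**Figure D3:**
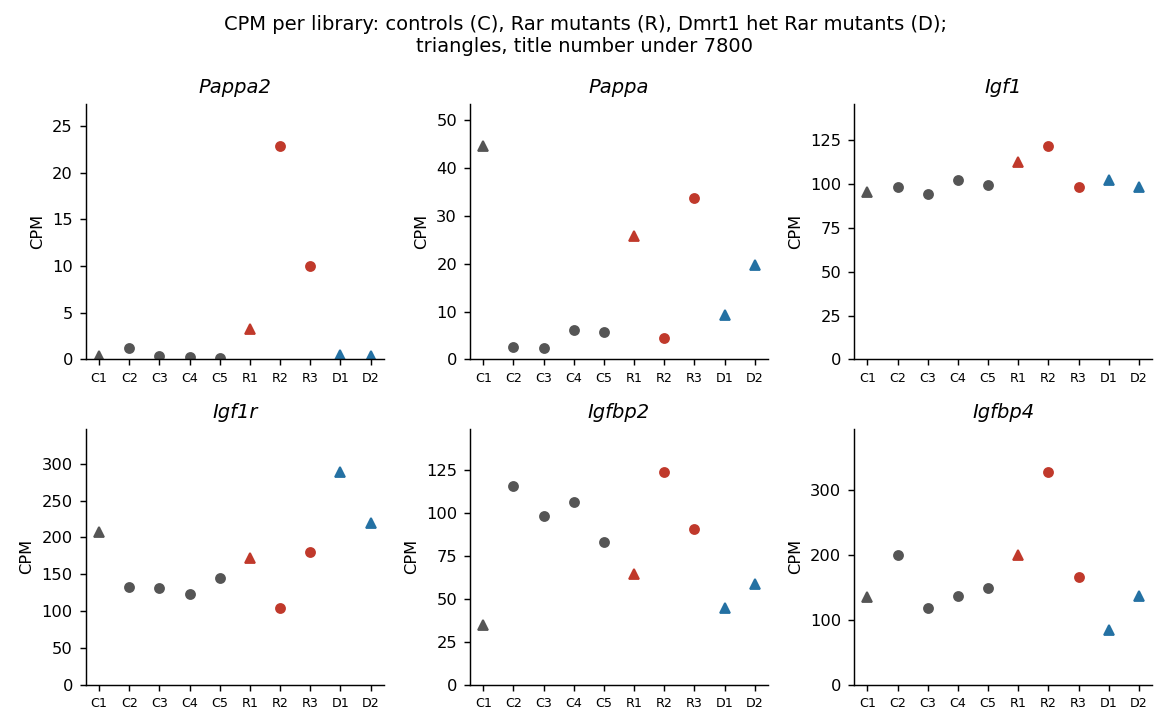
CPM per library for 6 of the genes on linear axes from 0, with controls (C), Rar mutants (R) and Dmrt1 het Rar mutants (D); triangles are title numbers under 7800. Pappa2 is high in the 3 Rar mutants alone, Igf1 lies between 94.4 and 122 CPM, and Igfbp2 is lower in all 4 triangles (34.8 to 64.8 CPM) than in all circles (83.1 to 124 CPM).

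The ligand gene Igf1, the main insulin-like growth factor of granulosa cells in the mouse, was at 95.2, 98.2, 94.4, 103 and 99.7 CPM in controls, 113, 122 and 98.1 CPM in Rar mutants, and 102 and 98.2 CPM in Dmrt1 het Rar mutants. Rar mutants 1 and 2 lay above every control and Rar mutant 3 within them. The log2 fold changes against controls were 0.18 (SE 0.11) in Rar mutants and 0.03 (SE 0.13, edgeR adjusted p = 0.907) in Dmrt1 het Rar mutants. The genes most like Igf1 over the 10 libraries were led by Umad1 (Pearson 0.936), Slc37a2 (0.935) and Aldh1l2 (0.916), given as a description over libraries that share their groups. By Spearman's coefficient these 3 ranked 76, 1 and 126, and over the 6 libraries above 7800 alone they ranked 21, 83 and 61.

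Igf2 encodes the second ligand, which is imprinted and abundant before birth. It was at 11.3, 9.58, 7.69, 7.91 and 8.20 CPM in controls, 7.32, 14.8 and 14.4 CPM in Rar mutants, and 9.59 and 9.78 CPM in Dmrt1 het Rar mutants. Rar mutants 2 and 3 lay above every control, and Rar mutant 1 below every control. The log2 fold change in Rar mutants was 0.44 (SE 0.24), which split into 0.80 (SE 0.18) in the higher title numbers and -0.63 between Rar mutant 1 and control 1. In Dmrt1 het Rar mutants it was 0.11 (SE 0.27, edgeR adjusted p = 0.842). Exons of Igf2 overlap those of Gm49394 and, on the other strand, Igf2os, and the counting strand is not given in the sources used here. Igf1 made up 86.4 ± 2.19% of the summed FPKM of both ligand genes in controls, 84.1 ± 5.24% in Rar mutants and 85.7 ± 0.545% in Dmrt1 het Rar mutants.

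The receptor gene Igf1r was highest in the Dmrt1 het Rar mutants. It was at 207, 133, 131, 123 and 145 CPM in controls, 172, 104 and 180 CPM in Rar mutants, and 289 and 219 CPM in Dmrt1 het Rar mutants. Both Dmrt1 het libraries lay above all others, while Rar mutants and controls overlapped. The log2 fold change of the Dmrt1 het Rar mutants was 0.78 (SE 0.25, edgeR adjusted p = 0.243) against controls and 0.74 (SE 0.28, edgeR adjusted p = 0.252) against Rar mutants, neither of which passed. With a term for the title number in the fit, both were 0.42 (edgeR adjusted p = 0.816 and 0.674). In the lower set alone, the Dmrt1 het libraries lay 0.48 and 0.08 above control 1 on the log2 CPM scale. In Rar mutants against controls Igf1r gave 0.04 (SE 0.23). Granulosa markers summed to 3100 and 3380 CPM in the Dmrt1 het Rar mutants, within the 1810 to 5770 CPM of controls, and to 2020, 1670 and 3260 CPM in Rar mutants 1 to 3. All 6 granulosa markers had a positive fold change in Dmrt1 het Rar mutants against Rar mutants, as Igf1r did (median 0.89 on the log2 scale). At an unadjusted edgeR p under 0.05 there were 2 of 6, beside 3467 of all 20570 genes, and edgeR called 0 of either. Against controls 3 of these 6 markers were positive and 3 negative (median 0.16). Their part in the Igf1r values was not tested.

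Igfbp2 encodes a secreted binding protein and is the neighbour of Igfbp5 on chromosome 1. It was at 34.8, 116, 98.4, 107 and 83.1 CPM in controls, 64.8, 124 and 90.6 CPM in Rar mutants, and 44.7 and 58.6 CPM in Dmrt1 het Rar mutants. Control 1 was the lowest of all, and the Dmrt1 het libraries were below every Rar mutant but not below control 1. Log2 fold changes of the Dmrt1 het Rar mutants were -0.77 (SE 0.41, edgeR adjusted p = 0.337) against controls and -0.85 (SE 0.44, edgeR adjusted p = 0.340) against Rar mutants. With the title number in the fit the first was 0.25 (edgeR adjusted p = 0.893). Rar mutants against controls gave 0.09 (SE 0.34). Surface epithelial markers summed to 117 and 136 CPM in the Dmrt1 het Rar mutants, below the 190 to 458 CPM of controls and the 172 to 340 CPM of Rar mutants, and their part in the Igfbp2 values was not tested.

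Igfbp4 encodes the binding protein that Pappa cuts. It was at 135, 200, 118, 136 and 149 CPM in controls, 200, 328 and 166 CPM in Rar mutants, and 85.0 and 136 CPM in Dmrt1 het Rar mutants. Rar mutant 2 was highest, and both Dmrt1 het libraries lay below all Rar mutants. The log2 fold change was 0.65 (SE 0.25) in Rar mutants against controls, 0.71 (SE 0.30) in the higher title numbers and 0.57 between the single libraries of the lower set. The Dmrt1 het Rar mutants differed from Rar mutants by -1.06 (SE 0.33, edgeR adjusted p = 0.216) and from controls by -0.42 (SE 0.30, edgeR adjusted p = 0.457). Stromal markers summed to 626 and 576 CPM in the Dmrt1 het Rar mutants, below the 742 to 1400 CPM of Rar mutants and the 658 to 1250 CPM of controls. All 4 had a negative fold change against Rar mutants (median -0.77). At an unadjusted edgeR p under 0.05 there were 2 of these 4, beside 3467 of all 20570 genes, and edgeR called 0 of either. The part of these markers in the Igfbp4 values was not tested.

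Igfbp3 and Igfbp5 encode the binding proteins that Pappa2 cuts. Igfbp5 was the most even binding protein gene, at 842, 793, 710, 618 and 787 CPM in controls, 759, 666 and 739 CPM in Rar mutants, and 734 and 830 CPM in Dmrt1 het Rar mutants. Igfbp3 was at 15.1, 10.2, 5.82, 20.3 and 16.8 CPM in controls, 12.9, 17.3 and 19.1 CPM in Rar mutants, and 12.3 and 13.1 CPM in Dmrt1 het Rar mutants. For both, every mutant library lay within the range of the controls. Log2 fold changes against controls were -0.06 (SE 0.15) for Igfbp5 and 0.27 (SE 0.33) for Igfbp3 in Rar mutants. In Dmrt1 het Rar mutants they were 0.06 (SE 0.17, edgeR adjusted p = 0.869) for Igfbp5 and -0.10 (SE 0.38, edgeR adjusted p = 0.903) for Igfbp3.

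Summed over Igfbp1 to Igfbp6, binding protein genes had 23.9 ± 2.86 times the FPKM of the 2 ligand genes in controls, 21.3 ± 1.74 times in Rar mutants and 18.4 ± 2.82 times in Dmrt1 het Rar mutants. Igfbp5 made up 46.2 ± 8.57%, 43.1 ± 7.995% and 60.0 ± 2.55% of that sum in the 3 groups. Control 1 had 60.6%, the highest of the controls and within the 58.2% to 61.8% of the Dmrt1 het Rar mutants, with which it shares the lower title numbers.

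Across the 10 genes, 9 of 10 fold changes were positive in Rar mutants against controls, with a median log2 fold change of 0.24 beside -0.02 over all 20570 genes. EdgeR called 0 of the 10 in that comparison, where 0.00972% of all genes were called. At an unadjusted p under 0.05 there were 2 of the 10 (Pappa2 and Igfbp4), beside 1944 of all 20570 genes. Pappa2 was the 1 of 10 whose groups did not overlap, beside 5.14% of all genes. Since this comparison put Pappa2 forward, its p and its lack of overlap here restate that choice. In Dmrt1 het Rar mutants against controls 6 of 10 were positive (median 0.05) and 0 were called by edgeR, beside 0.0194% of all genes. At an unadjusted p under 0.05 there was 1 of the 10 (Igf1r), beside 3563 of 20570 genes. Groups did not overlap for 1 of 10, Igf1r, beside 28.4% of all genes.

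In Dmrt1 het Rar mutants against Rar mutants 8 of 10 were negative (median -0.35). EdgeR called 0 of 10 and 0.00% of all genes. At an unadjusted p under 0.05 there were 3 of 10 (Pappa2, Igf1r and Igfbp4), beside 3467 of 20570 genes. Groups did not overlap for 4 of 10 (Igf1r higher, Pappa2, Igfbp2 and Igfbp4 lower), beside 39.3% of all genes. When all 5 Sf1-Cre+ ovaries were set against the controls, edgeR called 0 of the 10 and 0.111% of 18954 genes, and 1 of the 10 (Pappa2, log2 fold change 3.95, SE 1.06) was at an unadjusted p under 0.05, beside 1605 of all genes. DESeq2 called more of all genes than edgeR did in each comparison of genotypes, with counts given further below. Of the 10 it called 0 in Dmrt1 het Rar mutants against controls, and 1, Pappa2, in each of the 3 comparisons that hold the Rar mutants. Since those libraries put Pappa2 forward, its calls and small p-values there, and its lack of overlap, restate the choice and support nothing. These comparisons share their control or Rar mutant libraries.

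**Figure D4:**
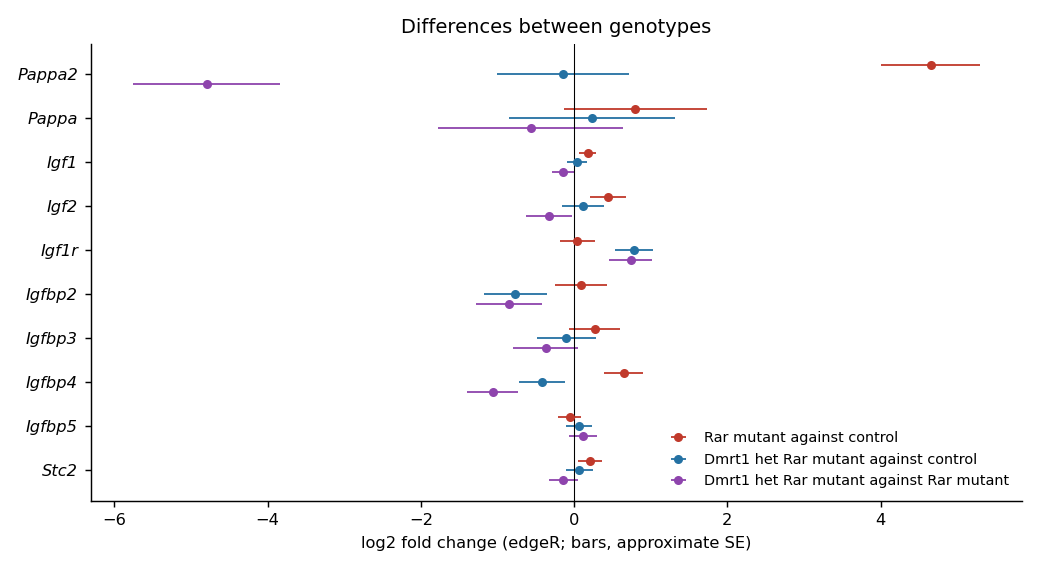
Log2 fold changes of the 10 genes in 3 comparisons of genotypes, with bars of 1 approximate SE. Pappa2 stands at 4.65 and -4.80 in the comparisons that hold the Rar mutants and at -0.14 in the other; Igf1r lies near 0.78 and 0.74 in the comparisons that hold the Dmrt1 het Rar mutants.

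The wider pathway was followed through 5 lists of further genes. EdgeR called 0 of their members in any comparison of genotypes; at an unadjusted p under 0.05 there were 2 of 9 proteases and inhibitors in Rar mutants against controls, beside 1944 of 20570 genes. In Dmrt1 het Rar mutants against controls there were 5 of 20 signalling genes, 2 of 5 binding proteins and receptors and 1 protease, beside 3563 of all genes. Between both mutant groups there were 9 of 20 signalling genes, 2 proteases, 1 binding protein or receptor and 1 growth hormone receptor gene, beside 3467 of all genes. Of the other binding proteins and receptors, 5 of 8 were measured. Igfbp6, a binding protein that prefers Igf2, had the smallest p among them in the Dmrt1 het Rar mutants, with a log2 fold change of -1.06 against controls (SE 0.31, edgeR adjusted p = 0.243). It was at 31.1 and 35.9 CPM there and at 40.8 to 86.1 CPM in controls. The lowest control was control 1, which shares the lower title numbers of both Dmrt1 het libraries. For lower against higher title numbers Igfbp6 gave -0.87 (SE 0.13).

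Of the proteases and inhibitors that act on binding proteins, 9 of 11 were measured. Adam9, a membrane protease, was at 65.5, 79.3 and 86.3 CPM in Rar mutants and 40.7 to 62.5 CPM in controls, without overlap (log2 fold change 0.65, SE 0.16, edgeR adjusted p = 0.157). Plau, which encodes urokinase, was at 66.0, 154 and 826 CPM in Rar mutants and 63.9 to 75.7 CPM in controls (2.34, SE 0.58, edgeR adjusted p = 0.165). Rar mutant 3 held most of the Plau difference, which was 0.67 without it (edgeR adjusted p = 0.589). The authors' deposited table lists Plau with a log2 fold change of 1.30, an SE of 0.31 and an adjusted p of 0.00636. As for Pappa2, the size of that fold change is not directly comparable with the edgeR value. Like Plau, the periovulatory markers above were highest in that library.

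For signalling genes inside the cell, 20 of 20 measured, 12 fold changes were positive in Rar mutants against controls, 15 in Dmrt1 het Rar mutants against controls and 14 in Dmrt1 het Rar mutants against Rar mutants. Their medians on the log2 scale were 0.06, 0.28 and 0.33, beside -0.02, -0.02 and -0.01 over all genes. Both Dmrt1 het libraries are of lower title number. For lower against higher title numbers the same list had 13 of 20 positive, with a median of 0.17 beside -0.03 over all genes. In that comparison 8 were at an unadjusted edgeR p under 0.05, beside 6532 of 20570 genes, and edgeR called 3. Foxo1, a transcription factor that the pathway inactivates, was at 770 and 647 CPM in Dmrt1 het Rar mutants, 306, 295 and 415 CPM in Rar mutants and 326 to 611 CPM in controls. It was thus highest in both Dmrt1 het libraries, and its difference from Rar mutants was 1.06 (SE 0.26, edgeR adjusted p = 0.203). Pik3r1, a regulatory subunit of the lipid kinase below the receptor, gave 1.00 (SE 0.32, edgeR adjusted p = 0.216) in that comparison. Of the 6 growth hormone receptor genes, Ghr itself had the smallest p, with 0.77 in Dmrt1 het Rar mutants against Rar mutants (SE 0.26, edgeR adjusted p = 0.232). For lower against higher title numbers Foxo1 gave -0.14 (SE 0.23), Pik3r1 0.01 (SE 0.30) and Ghr 0.29 (SE 0.21). H19, the imprinted neighbour of Igf2, gave -0.26 (SE 0.33, edgeR adjusted p = 0.880) in Rar mutants against controls.

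The sets of title numbers were compared after the counts of Pappa, Igf1r, Igf2r and Igfbp2 had been seen, in the fit with the 3 groups. Because both Dmrt1 het libraries are in the lower set, this difference rests on control 1 and Rar mutant 1. EdgeR called 2414 of 20570 genes (11.7%), 1587 higher and 827 lower in the lower set. The values of those 4 genes prompted the comparison and are given here as a description. Of the 10 genes edgeR called 1, Igfbp2, with a log2 difference of -1.14 (SE 0.23). All 4 libraries of the lower set (34.8 to 64.8 CPM) lay below all 6 others (83.1 to 124 CPM), but without control 1 the call was lost (-0.73). The share of all genes without overlap between the sets was not computed.

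Pappa gave 2.38 (SE 0.80) and Igf1r 0.48 (SE 0.20) between the sets, and neither was called. Pappa gave 0.44 without control 1 and 3.11 without Rar mutant 3, and Igf1r gave 0.69 without Rar mutant 3. Pappa2 gave -1.69 (SE 0.73, edgeR adjusted p = 0.147). The remaining 6 genes lay between -0.23 (Igfbp4) and 0.17 (Igfbp5).

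Between the sets 8 genes of the wider pathway were called, 6 higher and 2 lower, beside 11.7% of all genes. They were 2 higher and 1 lower of 5 binding proteins and receptors, 1 higher and 1 lower of 9 proteases and inhibitors, and 3 higher of 20 signalling genes. Of the 6 growth hormone receptor genes and of H19, 0 were called. Higher in the lower title numbers were Irs1, the adaptor below the receptor (1.70, SE 0.30, edgeR adjusted p = 0.0125), Igf2r, which clears Igf2 and was among the 4 genes seen beforehand (0.89, SE 0.17), the insulin receptor gene Insr (0.70), Adam12 (0.88), Pdpk1 (0.77) and Gsk3b (0.69). Lower were Igfbp6 (-0.87, SE 0.13, edgeR adjusted p = 0.00612) and the secreted protease gene Htra1 (-0.68). Irs1 was at 45.2, 35.6, 64.4 and 56.0 CPM in control 1, Rar mutant 1 and the Dmrt1 het libraries, and at 7.28 to 20.8 CPM in the 6 others. Surface epithelial markers summed to 190, 172, 117 and 136 CPM in those 4 libraries and 309 to 458 CPM in the others. Their part in the Igfbp2 and Igfbp6 differences between the sets was not tested.

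**Figure D5:**
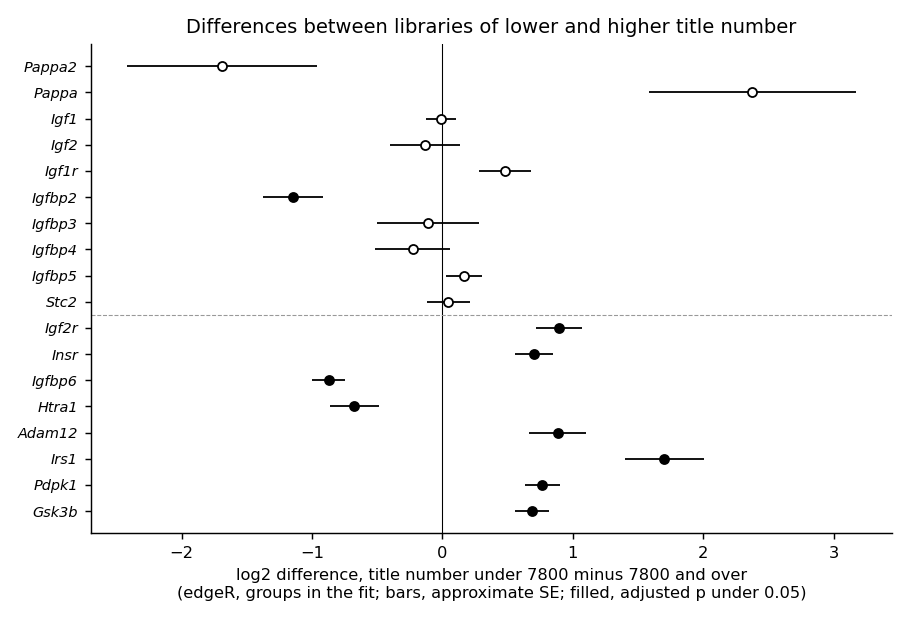
Log2 differences between libraries with title numbers under 7800 and the others, with bars of 1 approximate SE, for the 10 genes (above the dashed line) and the called pathway genes (below it); filled points have an adjusted p under 0.05. Of the 10 genes, Igfbp2 alone is filled, at -1.14, and it was among the genes that prompted the comparison.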

How the data were processed

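The submitters' processing notes name the build GRCm38 (mm10) and the tools STAR 2.4.2a, Trimmomatic 0.32, DESeq2 1.12.3 and SAMtools 1.0. How reads were assigned to genes, with which annotation and strand, is not given in the sources used here. The authors deposited raw counts per gene, which were tested, and FPKM, which were used for levels between genes. The deposited FPKM follow library size factors: across libraries, count over FPKM matched median-of-ratios factors within 0.122%. The authors' deposited table of comparisons gives for each gene, per the file headers, a log2 fold change with its SE, a Wald score, p-values before and after adjustment, and the signal as a mean count. Its means lay within 0.0348% of those over the 5 controls and 3 Rar mutants.

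Total counts were 21064856 to 25920131 per library, and 3 counts correspond to 0.116 to 0.142 CPM, counting error only. The count test was the two-sided quasi-likelihood test of edgeR 4.0.16 in R 4.3.3 (TMM, filterByExpr, robust), Benjamini-Hochberg adjusted over all genes tested, threshold 0.05. One fit over the 3 groups held 20570 genes, and 1 over Sf1-Cre+ against Sf1-Cre- held 18954. The approximate SE is the absolute log2 fold change over the root of F. CPM use TMM library sizes, and log2 CPM a prior count of 2. Errors beside means are SDs. The fit over the 3 groups was also run on simulated counts. Those held no difference between the sets of title numbers, so that run does not show how the fit behaves with one. Alternatives were RLE factors, DESeq2 1.42.0, no low-count filter, a title-number term, the higher title numbers alone, a replicate block and each library left out. Figures were drawn with matplotlib 3.10.9.

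The 10 genes and all lists were chosen with earlier results of these data known. All 10 were named. From each pathway list the genes called in a comparison, or else up to 3 with the smallest p, were eligible, and a part of these is printed. One gene of the signalling list is not reported here. The comparison of title numbers was added after the data were seen. Gene positions came from GENCODE M21, which matched 24038 of 24306 identifiers, and promoters from RefSeq.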

Additional observations from a re-analysis of the deposited data

Results flagged for a closer look

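In the 5 controls, 3 of the 10 genes had 1 library whose gap to its nearest neighbour exceeded Dixon's 95% critical value (0.71 of the range). Chance flags about 1 in 20 such groups if the values are normally distributed. The gaps were taken on CPM and not on log2 CPM, so the flags hold for the CPM scale only. Pappa2 was at 1.193 CPM in control 2, a gap of 0.833 of the range. Pappa was at 44.59 CPM in control 1 (0.909), and Igf1r was at 206.8 CPM in control 1 (0.743). Control 1 is the only control with a title number under 7800.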

How the results depend on the processing

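The count of genes called depended on the tool and on single libraries; the causes were not tested. For Rar mutants against controls it was 2, and 372 in DESeq2, 85 with a title-number term, 142 in the higher title numbers alone and 1 to 384 with a library left out (7 without control 2, 1 without controls 3 or 5 or Rar mutant 3, 384 without Rar mutant 1). Of the 10 genes 0 were called, and 1 (Pappa2) under each of the first 3 alternatives and without control 2 or Rar mutant 1, a range of 0 to 1. These calls rest on the libraries that put Pappa2 forward. Its log2 fold change ran from 3.80 (without Rar mutant 2) to 5.35 (without control 2). For Dmrt1 het Rar mutants against controls 4 genes were called, and 329 in DESeq2, 1 with the title-number term and 0 to 364 with a library left out (364 without control 1, 2 without control 2, control 3, control 5 or Rar mutant 3, 1 and 0 without the first and second Dmrt1 het library). For the difference of both mutant groups 0 were called, and 626 in DESeq2 (1 of the 10, Pappa2), with 0 to 335 genes and 0 to 1 of the 10 with a library left out (1 gene without control 1, 335 without Rar mutant 1). For all Sf1-Cre+ ovaries 21 were called, and 180 in DESeq2 (1 of the 10, Pappa2) and 40 with the term. With a library left out 5 to 52 were called. These were 52 without control 1 and 11, 7, 5 and 8 without controls 2 to 5. They were 5 without Rar mutant 2, and 6 and 5 without the first and second Dmrt1 het library. The higher numbers alone hold no Dmrt1 het library, so there this comparison is the Rar mutant fit given above (142 genes) and no separate result. For title numbers 2414 were called, and 3958 in DESeq2 and 118 to 3494 with a library left out (217 without control 1, 118 without Rar mutant 1, and 1230 to 1460 without control 4, control 5, Rar mutant 2 or either Dmrt1 het library), with 0 to 3 of the 10.

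The replicate numbers of the titles were shared by 7 pairs of libraries across groups, whose deviations correlated from -0.087 to 0.435, and 5 of 10 libraries correlated best with their own number, so pairing was not established. With a replicate block, Pappa2 was at 4.14 in Rar mutants, 0 genes were called for Dmrt1 het Rar mutants against controls and 0 for all Sf1-Cre+ ovaries. Under the block Igf1r turned to -0.05 in Rar mutants, Igfbp3 to 0.23 and Igfbp5 to -0.02 in Dmrt1 het Rar mutants against controls, Pappa to 0.38 between mutant groups, and Igfbp2 to 0.06 and Igf2r to -0.08 for all Sf1-Cre+ ovaries.

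Signs of genes that were not called also turned. With the title-number term these were Igf1r (0.00) and Insrr (-0.16) in Rar mutants; Pappa2 (1.27), Pappa (-0.89), Igfbp2 (0.25), Igfbp5 (-0.07), Cish (-0.55) and H19 (0.04) in Dmrt1 het Rar mutants against controls; H19 (0.33) between mutant groups; and Igfbp2 (0.30), Igf2r (-0.30) and Ghr (-0.12) for all Sf1-Cre+ ovaries. In the higher numbers alone they were Insrr (-1.56) and H19 (0.06) in Rar mutants. The only Sf1-Cre+ ovaries in that set are Rar mutants. That same Rar mutant fit gave Igfbp2 (0.08), Igf2r (-0.48), Ghr (-0.11) and H19 (0.06), opposite in sign to all Sf1-Cre+ ovaries together. With a library left out, ranges that crossed 0 in Rar mutants were -0.10 to 0.25 for Igf1r, -0.18 to 0.29 for Igfbp2, -0.42 to 0.02 for Igfbp6, -1.44 to 1.34 for Insrr, -0.78 to 0.10 for Stat5b and -0.53 to 0.12 for H19. In Dmrt1 het Rar mutants against controls they were -0.33 to 0.55 for Pappa2, -0.41 to 1.78 for Pappa, -0.29 to 0.08 for Igfbp3, -0.02 to 0.15 for Igfbp5, -0.04 to 0.18 for Stc2 and -0.46 to 0.73 for Cish, and between mutant groups -1.16 to 0.20 for Cish. For all Sf1-Cre+ ovaries they were -0.06 to 0.32 for Igfbp3, -0.01 to 0.49 for Igfbp4, -0.07 to 0.04 for Igfbp5 and -0.12 to 0.24 for Ghr, and for title numbers -0.05 to 0.05 for Igf1, -0.99 to 0.44 for Igf2, -0.49 to 0.19 for Igfbp3, -0.35 to 0.00 for Igfbp4 and -0.03 to 0.13 for Stc2. For the comparison of title numbers, RLE factors, no filter and the replicate block were not run, and the higher numbers alone hold no Dmrt1 het library. In the other comparisons RLE factors and no low-count filter changed no call among the 10 genes. Depth limits Pappa2 most, with 5 to 30 counts in controls.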
